A study of Homo sapiens with 18 samples.

Results

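The difference between the THZ1 responses of BxPC3 and SUIT2 cells was measured gene by gene, as the log2 change of THZ1 over DMSO in BxPC3 minus the same change in SUIT2. The contrast takes 12 of the 18 libraries of the series, 3 in each of 4 groups: BxPC3 with THZ1, BxPC3 with DMSO, SUIT2 with THZ1 and SUIT2 with DMSO. THZ1 was given at 100 nM for 6 h, and DMSO is its vehicle. Of the 26485 gene symbols in the files, 13096 had enough counts to be tested. A positive difference means that the BxPC3 response was the higher of the pair. The genes of most interest are those that THZ1 changed in opposite directions in the 2 lines.

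Both lines are established human pancreatic ductal adenocarcinoma lines, and nothing in the labels names any other genetic change made to them. THZ1 binds covalently to CDK7, which is the TFIIH kinase, and also to the related kinases CDK12 and CDK13. CDK7 phosphorylates the tail of RNA polymerase II as transcription starts and switches on other cyclin-dependent kinases, while CDK12 and CDK13 act on elongating polymerase. RNA levels measured this way are relative to all counts in a library, so they do not give the amount of RNA per cell. The series is titled after SIRT6, which removes acyl groups from chromatin, and the integrated stress response, a pathway in which phosphorylation of eIF2 alpha favours translation of the transcription factor ATF4.

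The 12 libraries held 6692486 to 8263032 gene counts each, and levels below are CPM, counts scaled to the library's total, after TMM scaling. After a level, ± gives the SD of 3 libraries, and after a log2 response or difference it gives the SE. The labels do not tell whether replicate libraries are separate cultures, and p-values therefore reflect the spread among these samples alone, which may be technical. In bulk RNA a loss of cells and a loss of RNA per cell cannot be told apart. All 6 ductal epithelial markers looked at were present in all 4 groups, although KRT7 and CDH1 were low in SUIT2. Their summed level was 10100 to 10400 CPM with THZ1 and 6460 to 6590 with DMSO in BxPC3, and 7410 to 8200 and 7140 to 7540 CPM in SUIT2. Of 16 markers of blood, endothelial and fibroblast cells, between 3 and 9 were at 0 counts in a group. They summed to 23.8 to 31.6 CPM with THZ1 and 15.8 to 19.1 with DMSO in BxPC3, and to 280 to 308 and 269 to 301 CPM in SUIT2, and the highest were LYZ in SUIT2 (287 ± 15.8 CPM with THZ1, 281 ± 15.3 with DMSO, SD, n = 3) and COL1A1 in BxPC3 (18.5 ± 2.90 and 9.95 ± 1.97 CPM). SMAD4, which BxPC3 lacks through a homozygous deletion, had at most 2 counts in any group of either line, so it does not tell the lines apart here.

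THZ1 changed far more genes in BxPC3 than in SUIT2, and that inequality made up most of the difference. Of the 13096 genes, 7709 (58.9%) had a called difference at a Benjamini-Hochberg adjusted p under 0.05 in edgeR's quasi-likelihood test, 3947 (30.1%) higher in BxPC3 and 3762 (28.7%) lower. Of the called differences 473 were at least 2-fold higher and 1575 at least 2-fold lower. In BxPC3 4948 genes (37.8%) were called higher with THZ1 and 4656 (35.6%) lower, and in SUIT2 851 (6.5%) were called higher and 1125 (8.59%) lower. The median absolute response was 0.58 in BxPC3 and 0.12 in SUIT2 on the log2 scale, and 84.8% of genes had the larger absolute response in BxPC3.

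The called differences fall into a few kinds. Most, 6201 genes or 80.4%, belonged to genes called in BxPC3 and not in SUIT2. Another 1022 (13.3%) had moved the same way in both lines and further in BxPC3, against 9 that moved the same way and further in SUIT2. SUIT2 was the only line with a call for 133 genes, and 134 genes had a called difference with a call in neither line. The remaining 210 genes (1.6% of those tested) were called in both lines with opposite signs. Of these, 115 (0.878%) were higher with THZ1 in BxPC3 and lower in SUIT2, and 95 (0.725%) were lower in BxPC3 and higher in SUIT2. Among the 1624 genes called in both lines, 1414 had moved the same way.

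**Figure D1:**
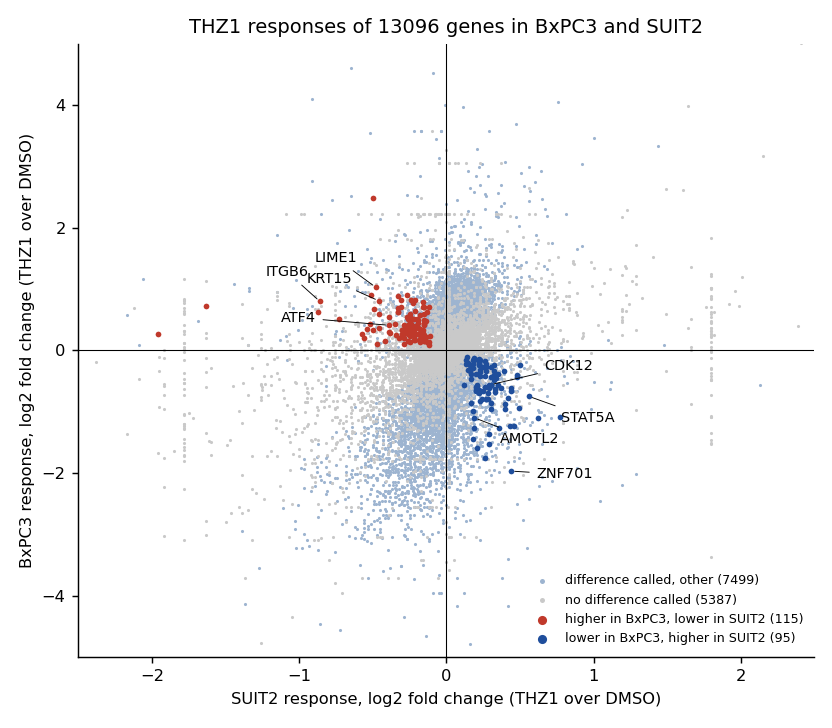
Log2 response to THZ1 (THZ1 over DMSO) in BxPC3 on the vertical axis and in SUIT2 on the horizontal axis, 1 point per tested gene, with 57 genes outside the axes. The cloud is tall and narrow, and the 115 genes at the upper left and the 95 at the lower right lie close to the vertical axis. Points in straight columns or rows are genes with very few counts.

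Directions depend on where the middle of the response is set. TMM scaling put the median difference of all genes at 0.02. Scaling by library size alone put it at -0.37, with a median BxPC3 response of -0.37 and a median SUIT2 response of 0.00. The share of called differences that were higher in BxPC3 was 51.2% with TMM, 52.6% with RLE size factors and 22.8% with library size only. The count of opposite-way genes moved with it: 22 higher in BxPC3 and lower in SUIT2, and 210 the other way, with library size only. Of the 115 genes, 21 kept the opposite-way call under all 3 scalings, and of the 95, 74 did. A lost call need not mean a changed sign. Library composition differed too. Records aligned to several places were 22.8% ± 0.808 of BxPC3 THZ1 files and 12.8% ± 0.612 of BxPC3 DMSO files (SD, n = 3, exact 2-sided permutation p = 0.1, the smallest that 3 against 3 allows). In SUIT2 the shares were 12.9% ± 0.900 with THZ1 and 13.2% ± 0.725 with DMSO (exact 2-sided permutation p = 0.7). RNA45S5, the ribosomal RNA precursor, was at 545 ± 42.9 CPM with THZ1 and 1.46 ± 0.0781 with DMSO in BxPC3, and at 14.3 ± 1.70 and 4.05 ± 0.724 CPM in SUIT2, though its repeated copies make its counts uncertain. The part of these shifts in the differences was not tested.

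The opposite-way changes were small. Among the 115 genes the median response was 0.37 in BxPC3 and -0.24 in SUIT2, and the weaker of the 2 responses had a median of 0.22, or 1.17-fold. Among the 95 genes the medians were -0.56 in BxPC3 and 0.26 in SUIT2, and the weaker response had a median of 0.24, or 1.18-fold. Treated and DMSO libraries did not overlap in either line for 105 of the 115 genes and 83 of the 95. The share over all genes was not counted, and calls in both lines already make such separation likely. Having no such overlap was also a condition for ranking the leading genes of each direction. Wherever it is stated below for an opposite-way gene, it describes the libraries and lends no support. Only 7 of the 210 reached 1.5-fold in both lines. They were ITGB6, FN1, SNCG and LOC100131564 in the first direction and LZTS3, NFATC1 and SH2D2A in the second, named after their values were seen. All 7 were low in SUIT2, where the highest group mean among them was 6.01 CPM, for NFATC1 with THZ1. Leaving out each library in turn kept 42 of the 115 and 18 of the 95 in every case, and without SUIT2 DMSO replicate 3 the counts were 72 and 47. Of the opposite-way genes described below, ATF4, NT5E, MMP1, SERPINB5, ABCC3, JMJD6, HSPA5, SNHG1, UBE2C and RBM39 of the first direction were kept. HNRNPA1, HNRNPA3, HNRNPH1, HNRNPH3, HNRNPA1P10, DDX5 and DDX21 of that direction were kept as well. CDK12, ERBB2, MCL1, CYR61, CCNG1, SPICE1, MOCS1 and ZNF106 of the second were kept too. The others lost the opposite-way call in at least 1 case, among them ITGB6, FN1, LIME1, KRT15, EPCAM, HSP90AB1, BIRC5, WDR91, AMOTL2, ERBB3 and CCND1. Some of the others had a SUIT2 call close to the threshold. The edgeR adjusted p in SUIT2 was 0.0472 for ABCB9, 0.0431 for AMOTL1, 0.0374 for BIRC5 and 0.0373 for CCND1.

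The promoters of 4 opposite-way genes are shown, 2 from each direction, to set the stretch around the RefSeq start beside the values. ATF4 and NT5E were higher with THZ1 in BxPC3 and lower in SUIT2, and CDK12 and WDR91 were the reverse. Each is 300 bases of GRCh38.p14 from RefSeq, 250 before and 50 after the start, written along the gene's own strand. ATF4 is at chr22:39520309-39520608 on the plus strand, NT5E at chr6:85449833-85450132 plus, CDK12 at chr17:39461236-39461535 plus and WDR91 at chr7:135211477-135211776 minus. Capitals mark GGGCGG (the GC box), TATAAA (the TATA box) and TGACGT (the core of the cAMP response element) on either strand. CCAAT was also searched and is in none of the 4. The GENCODE gene records given below start upstream of the stretches shown for ATF4 and NT5E, which lie inside those records.
ATF4: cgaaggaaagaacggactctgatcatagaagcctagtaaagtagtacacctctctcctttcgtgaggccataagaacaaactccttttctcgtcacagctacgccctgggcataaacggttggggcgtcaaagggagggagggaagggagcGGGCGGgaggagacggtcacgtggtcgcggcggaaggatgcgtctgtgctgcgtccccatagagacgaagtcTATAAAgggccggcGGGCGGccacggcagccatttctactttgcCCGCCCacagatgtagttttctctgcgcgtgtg
NT5E: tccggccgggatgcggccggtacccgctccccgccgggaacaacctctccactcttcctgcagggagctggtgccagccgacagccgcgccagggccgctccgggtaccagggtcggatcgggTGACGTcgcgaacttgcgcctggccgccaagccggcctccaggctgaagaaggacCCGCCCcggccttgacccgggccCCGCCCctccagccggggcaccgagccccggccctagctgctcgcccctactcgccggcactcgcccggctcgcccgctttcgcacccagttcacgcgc
CDK12: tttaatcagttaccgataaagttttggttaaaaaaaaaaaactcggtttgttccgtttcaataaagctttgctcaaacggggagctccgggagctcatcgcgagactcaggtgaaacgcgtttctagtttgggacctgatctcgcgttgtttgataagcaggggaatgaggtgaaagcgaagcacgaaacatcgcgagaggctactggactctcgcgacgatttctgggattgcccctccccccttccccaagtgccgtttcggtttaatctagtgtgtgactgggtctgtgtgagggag
WDR91: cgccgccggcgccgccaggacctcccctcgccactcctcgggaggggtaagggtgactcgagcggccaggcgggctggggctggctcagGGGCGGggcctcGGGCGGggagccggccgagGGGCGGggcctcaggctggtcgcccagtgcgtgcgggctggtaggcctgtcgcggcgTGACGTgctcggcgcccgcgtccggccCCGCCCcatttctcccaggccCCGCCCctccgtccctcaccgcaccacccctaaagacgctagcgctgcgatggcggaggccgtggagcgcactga
ATF4 holds 3 GC boxes and 1 TATA box, NT5E 2 GC boxes and 1 TGACGT, WDR91 5 GC boxes and 1 TGACGT, and CDK12 none of the 4 motifs. Over the sets, 80 of the 115 genes, 69 of the 95 and 9793 of all 13096 had a promoter entry. GGGCGG was in 73.8% of the promoters of the first set, 72.5% of the second and 70.2% of all. CCAAT was in 35%, 46.4% and 36.7%, TATAAA in 7.5%, 4.35% and 5.61%, and TGACGT in 13.8%, 14.5% and 11.8%, in the same order. A match describes these letters and no more.

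Genes higher with THZ1 in BxPC3 and lower in SUIT2 included ATF4, surface and matrix genes, keratin 15, small nucleolar RNA host genes and chaperones. ATF4 (chr22:39519695-39522685, plus strand, GENCODE 29 on GRCh38) codes for the transcription factor of the integrated stress response. Its levels were 311, 300 and 316 CPM with THZ1 in BxPC3, against 241, 230 and 229 with DMSO. In SUIT2 they were 188, 184 and 184 CPM with THZ1, against 238, 245 and 246 with DMSO. All 3 treated BxPC3 libraries lay above, and all 3 treated SUIT2 libraries below, every DMSO library of either line. The response was 0.41 ± 0.04 in BxPC3 (log2 ± SE, adjusted p = 1.06e-12) and -0.39 ± 0.04 in SUIT2 (adjusted p = 3.87e-10). The difference was 0.80 ± 0.06 (adjusted p = 2.64e-17, edgeR). With library size only, the BxPC3 response was -0.00 and the difference 0.40.

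ITGB6 and FN1 were among the 7 genes past 1.5-fold in both lines. ITGB6 (chr2:160099666-160200313, minus strand) codes for an epithelial integrin subunit that helps to activate latent TGF-beta. Its level was 154, 146 and 155 CPM with THZ1 and 90.8, 86.2 and 85.0 with DMSO in BxPC3, and 1.8, 1.91 and 1.75 with THZ1 and 2.95, 4.22 and 2.78 with DMSO in SUIT2. The treated libraries stood apart from the DMSO libraries in both lines, which was a condition for naming it. SUIT2 held only 45 counts with THZ1 and 83 with DMSO over 3 libraries. The difference was 1.65 ± 0.25 (adjusted p = 1.12e-07). FN1, fibronectin, a matrix glycoprotein, was at 48.0 ± 1.55 CPM with THZ1 and 29.1 ± 1.27 with DMSO in BxPC3. In SUIT2 it had 8 counts with THZ1 and 26 with DMSO, and DMSO replicate 3 alone stood at 1.89 CPM against 0.492 and 0.620 in the others. Its fitted difference of 2.35 ± 0.54 (adjusted p = 0.000168) therefore rests in SUIT2 on few counts. MMP1, the interstitial collagenase, gave the same pattern at high counts. It was at 2690 ± 19.0 CPM with THZ1 and 1440 ± 61.7 with DMSO in BxPC3, and at 194 ± 7.68 and 233 ± 4.64 CPM in SUIT2, a difference of 1.16 ± 0.05 (adjusted p = 4.22e-26). Exons of WTAPP1 overlap it on the other strand.

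NT5E (chr6:85449584-85495791, plus strand) codes for CD73, the surface enzyme that makes adenosine from AMP. Its levels were 403, 403 and 375 CPM with THZ1 and 243, 236 and 252 with DMSO in BxPC3, and 55.5, 55.4 and 57.8 with THZ1 and 73.9, 63.5 and 74.4 with DMSO in SUIT2. Neither line had an overlap between treated and DMSO libraries. The difference was 1.02 ± 0.08 (adjusted p = 3.54e-17). SERPINB5, the epithelial serpin maspin, rose by 0.71 in BxPC3 and fell by 0.31 in SUIT2, a difference of 1.02 ± 0.06 (adjusted p = 1.61e-20). EPCAM, an epithelial adhesion molecule and one of the ductal markers, rose to 244 ± 9.4 CPM with THZ1 in BxPC3, against 149 ± 4.13 with DMSO, and fell to 196 ± 8.71 CPM in SUIT2, against 219 ± 9.89. KRT15, a keratin of basal epithelial cells, was at 65.7 ± 1.65 CPM with THZ1 and 37.5 ± 3.29 with DMSO in BxPC3, and at 6.60 ± 0.781 and 9.22 ± 1.21 CPM in SUIT2, a difference of 1.27 ± 0.17 (adjusted p = 3.46e-09). LIME1, a transmembrane adaptor that binds Src-family kinases, had a difference of 1.51 ± 0.20 (adjusted p = 2.05e-09), with 173 counts with THZ1 and 245 with DMSO in SUIT2. All of FN1, ITGB6, MMP1, NT5E, SERPINB5, EPCAM, KRT15 and LIME1 stayed opposite under all 3 scalings.

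The other leading genes of this direction did not keep the opposite-way call when only library size was used. ABCC3, an export pump for organic anions, was at 58.5 ± 2.55 CPM with THZ1 and 40.2 ± 1.72 with DMSO in BxPC3, and at 204 ± 18.6 and 268 ± 5.42 CPM in SUIT2. Its difference was 0.93 ± 0.09 (adjusted p = 1.97e-13), with a BxPC3 response of 0.54, or 0.13 with library size only. GALNT18, of the family of enzymes that start mucin-type O-glycans, differed by 0.94 ± 0.20, and SIAH2, a ubiquitin ligase, by 0.77 ± 0.12. Their BxPC3 responses of 0.43 each became 0.02 with library size only. JMJD6, a lysyl hydroxylase, differed by 0.84 ± 0.14 and SH3YL1, a phosphoinositide-binding SH3 protein, by 0.89 ± 0.20. Their BxPC3 responses turned to -0.03 and -0.06 with library size only. ACP1 shares exon sequence with SH3YL1 on the other strand, and since the strand setting of the counting is not given, reads from such pairs cannot be told apart.

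Some chaperone and small nucleolar RNA host genes were of the same direction, and the lists held genes of both directions. Of 20 heat shock genes 13 differences were called higher and 3 lower, beside 30.1% and 28.7% of all genes, and with library size only 8 and 8. HSP90AB1, HSPE1 and HSPD1 were opposite, beside 1.6% of all genes, while DNAJB1, a co-chaperone of HSP70, had a difference of -1.22 ± 0.08. Of 20 small nucleolar RNA host genes 8 were higher and 6 lower, with a median of 0.06 against 0.02 over all genes. SNHG1, SNHG15 and DANCR were opposite, again beside 1.6% of all genes. HSP90AB1, the constitutive cytosolic HSP90, was at 3660, 3600 and 3610 CPM with THZ1 and 2250, 2120 and 2270 with DMSO in BxPC3, and at 1940, 1940 and 1980 with THZ1 and 2130, 2070 and 2170 with DMSO in SUIT2. No treated library overlapped a DMSO library of its line, and the difference was 0.83 ± 0.04 (adjusted p = 4.09e-23). HSPE1, a mitochondrial chaperonin, differed by 0.74 ± 0.07 and its partner HSPD1 by 0.35 ± 0.05, but that of HSPD1 turned to -0.06 with library size only, and the pair overlap on opposite strands. HSPA5, the chaperone BiP of the endoplasmic reticulum, differed by 0.58 ± 0.05, with a BxPC3 response of 0.44, or 0.03 with library size only. SNHG1 was at 210, 204 and 193 CPM with THZ1 and 146, 127 and 128 with DMSO in BxPC3, and at 48.0, 47.6 and 46.6 with THZ1 and 63.5, 68.8 and 63.7 with DMSO in SUIT2. Its treated libraries lay above the DMSO libraries in BxPC3 and below them in SUIT2, a difference of 1.06 ± 0.09 (adjusted p = 3.61e-16). SNHG15 differed by 0.95 ± 0.14 and DANCR by 0.84 ± 0.10. Small nucleolar RNAs overlap SNHG1 and SNHG15 in the annotation and make their counts uncertain.

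BIRC5, CDK1 and UBE2C, which act in cell division, were among the genes of this direction. Of 36 mitotic genes, 11 differences were called higher, a share near that of all genes, and 16 lower, beside 30.1% and 28.7%. Their median was -0.10, and with library size only 4 were higher and 25 lower. CDK1 was the 1 opposite member, beside 1.6% of all genes. CENPI, a centromere protein, had a difference of -1.72 ± 0.20 and BUB1B, a checkpoint kinase, of -1.07 ± 0.08. BIRC5, survivin, was at 154 ± 6.06 CPM with THZ1 and 94.4 ± 3.65 with DMSO in BxPC3, and at 114 ± 3.86 and 127 ± 6.44 CPM in SUIT2, a difference of 0.85 ± 0.08 (adjusted p = 1.01e-14). UBE2C, the ubiquitin-conjugating enzyme of the anaphase-promoting complex, differed by 0.85 ± 0.07 (adjusted p = 5.71e-16). CDK1, the mitotic kinase, differed by 0.59 ± 0.07 (adjusted p = 3.8e-10), with a BxPC3 response of 0.44, or 0.03 with library size only. RBM39, a splicing factor, was at 498 ± 11.4 CPM with THZ1 and 288 ± 5.11 with DMSO in BxPC3, and at 254 ± 6.79 and 283 ± 1.92 CPM in SUIT2, a difference of 0.95 ± 0.06 (adjusted p = 2.1e-21). PCF11, a factor of 3′-end cleavage and transcription termination, differed by 0.76 ± 0.09 (adjusted p = 1.47e-10).

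**Figure D2:**
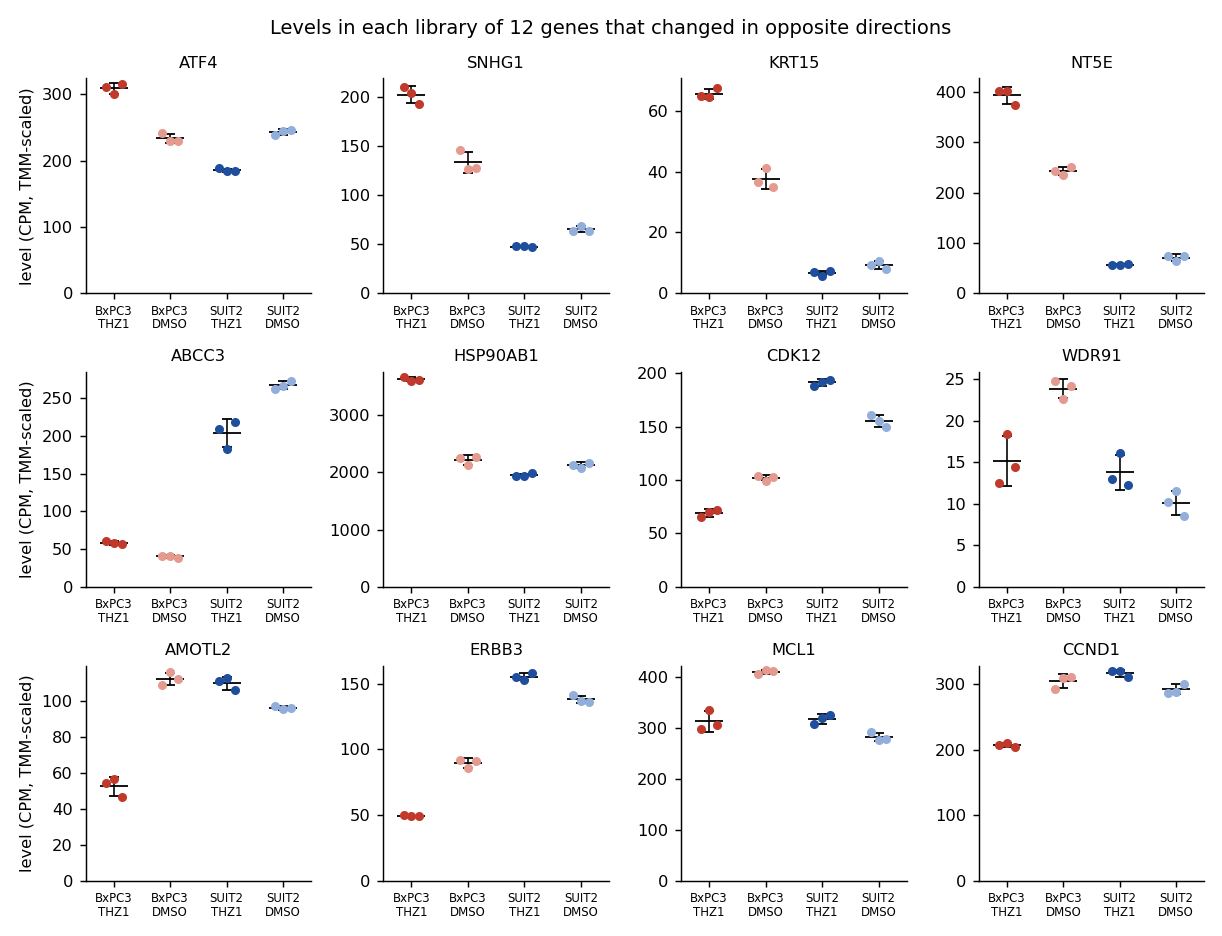
Level in CPM (TMM-scaled, axis from 0) of 12 opposite-way genes, with 1 point per library and a black bar and whiskers for the mean and SD of 3 libraries. From ATF4 to HSP90AB1 the THZ1 points are above DMSO in BxPC3 and below it in SUIT2, and from CDK12 to CCND1 the reverse.

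Genes lower with THZ1 in BxPC3 and higher in SUIT2 included CDK12, 2 receptors of the ERBB family, CCND1, MCL1 and some targets of the Hippo pathway. CDK12 (chr17:39461511-39564907, plus strand), which THZ1 itself binds, is needed for full transcription of long genes of the DNA damage response. Its levels were 65.4, 70.1 and 71.8 CPM with THZ1 and 104, 99.4 and 103 with DMSO in BxPC3, and 188, 192 and 194 with THZ1 and 161, 155 and 150 with DMSO in SUIT2. The groups did not overlap in either line. The response was -0.56 ± 0.06 in BxPC3 (adjusted p = 1.55e-12) and 0.30 ± 0.05 in SUIT2 (adjusted p = 4.15e-06), a difference of -0.86 ± 0.08 (adjusted p = 7.56e-15). CDK7, the main target of THZ1, had a difference of -0.76 ± 0.12 (adjusted p = 4.44e-07), but its SUIT2 response of 0.17 ± 0.08 was not called (adjusted p = 0.14). CDK13 had a difference of 0.17 ± 0.09 (adjusted p = 0.0933), which was -0.23 with library size only.

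The receptors ERBB3 and ERBB2 and the cyclin gene CCND1 were also lower in BxPC3 and higher in SUIT2. Of 13 tested EGF receptor, ligand and MET genes, 5 differences were called higher and 4 lower, beside 30.1% and 28.7% of all genes. Their median difference was -0.06 against 0.02 over all genes, and with library size only 2 were higher and 7 lower. Among the 13, 2 were opposite, ERBB3 and ERBB2, beside 1.6% of all genes. ERBB3, a receptor of the EGF receptor family that signals with ERBB2, was at 49.6, 49.3 and 49.1 CPM with THZ1 and 92, 85.5 and 91.3 with DMSO in BxPC3, and at 155, 153 and 158 with THZ1 and 141, 137 and 136 with DMSO in SUIT2. Every treated library stood apart from the DMSO libraries of its line, and the difference was -1.03 ± 0.08 (adjusted p = 7.66e-17). ERBB2 differed by -0.44 ± 0.09 (adjusted p = 1.57e-05), with exons of MIEN1 and PGAP3 overlapping on the other strand. EGFR itself fell in BxPC3 to 109 ± 8.80 CPM with THZ1, against 331 ± 10.1 with DMSO, and was at 200 ± 3.66 and 206 ± 5.6 CPM in SUIT2, a difference of -1.55 ± 0.07 (adjusted p = 8.14e-27). CCND1, cyclin D1, was at 207, 211 and 205 CPM with THZ1 and 293, 310 and 312 with DMSO in BxPC3, and at 320, 320 and 311 with THZ1 and 287, 289 and 301 with DMSO in SUIT2. The lines were close to each other with DMSO and apart with THZ1, a difference of -0.67 ± 0.06 (adjusted p = 6.05e-15), with ORAOV1 overlapping on the other strand.

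MCL1, a short-lived inhibitor of apoptosis, was at 297, 336 and 306 CPM with THZ1 and 406, 414 and 411 with DMSO in BxPC3, and at 307, 319 and 326 with THZ1 and 292, 277 and 278 with DMSO in SUIT2. Treated and DMSO libraries did not overlap in either line, and the difference was -0.56 ± 0.06 (adjusted p = 4.78e-12). AMOTL2, a target and regulator of the Hippo effector YAP, was at 52.6 ± 5.26 CPM with THZ1 and 113 ± 3.31 with DMSO in BxPC3, and at 110 ± 3.83 and 96.3 ± 1.07 CPM in SUIT2. Its difference was -1.29 ± 0.09 (adjusted p = 1.77e-19). The related AMOTL1 differed by -0.63 ± 0.08, and CYR61, a secreted YAP target, by -0.93 ± 0.08 (adjusted p = 2.01e-14). NT5E, also on the list of YAP and TEAD targets, was opposite in the other direction. SKI, a repressor of SMAD transcription factors, differed by -0.92 ± 0.08 (adjusted p = 2.81e-14), and CCNG1, a p53 target, by -0.53 ± 0.09 (adjusted p = 1.06e-06). AMOTL2, CYR61, SKI, CCNG1, CDK12, MCL1, ERBB2 and ERBB3 kept the opposite-way call under all 3 scalings, while AMOTL1 and CCND1 did not. With library size only the signs of AMOTL1 and CCND1 were still opposite. AMOTL1 was then at -0.87 in BxPC3 and 0.16 in SUIT2, and CCND1 at -0.96 and 0.11.

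Some genes of this direction with the largest weaker response had few counts in BxPC3, with 21 over the 3 THZ1 libraries for STARD9 and 34 for MOCS1. STAT5A, a transcription factor of cytokine signalling, was at 3.58 ± 0.534 CPM with THZ1 and 5.99 ± 0.577 with DMSO in BxPC3, and at 10.7 ± 1.07 and 7.35 ± 1.36 CPM in SUIT2, a difference of -1.31 ± 0.26 (adjusted p = 2.47e-05). WDR91, a regulator of endosome maturation, was at 12.5, 18.4 and 14.4 CPM with THZ1 and 24.8, 22.6 and 24.2 with DMSO in BxPC3, and at 13.0, 16.1 and 12.2 with THZ1 and 10.2, 11.5 and 8.56 with DMSO in SUIT2. Its treated libraries lay below DMSO in BxPC3 and, by a narrow margin, above it in SUIT2, a difference of -1.11 ± 0.18 (adjusted p = 6.72e-07). SPICE1, needed for centriole duplication, differed by -0.91 ± 0.15, and GPRIN1, linked to neurite outgrowth, by -1.19 ± 0.20, with CDHR2 overlapping on the other strand. MOCS1, of molybdenum cofactor synthesis, which DAAM2 overlaps, differed by -1.67 ± 0.27, STARD9, a kinesin, by -1.70 ± 0.36, and KCTD7, a BTB-domain protein, by -1.36 ± 0.28. ABCB9, a lysosomal peptide transporter, differed by -1.06 ± 0.22, with OGFOD2 and ARL6IP4 overlapping on the other strand. SH2D2A, a T-cell adaptor, had 46 counts with THZ1 and 270 with DMSO in BxPC3, and 8 with THZ1 and 0 with DMSO in SUIT2. No fold is given for SUIT2 on so few counts.

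The numbered zinc finger genes among the opposite-way genes were all of this direction. ZNF701 fell to 2.80 ± 0.103 CPM with THZ1 in BxPC3, against 11.0 ± 0.763 with DMSO, and rose to 8.22 ± 0.799 CPM in SUIT2, against 6.06 ± 0.256, a difference of -2.40 ± 0.26 (adjusted p = 4.96e-12). It shares exon sequence with ZNF808, and its SUIT2 call was marginal (adjusted p = 0.0488). ZNF436 differed by -1.80 ± 0.14, ZNF805 by -0.88 ± 0.24, ZNF618 by -0.79 ± 0.17 and ZNF106 by -0.45 ± 0.08. Among the 390 numbered zinc finger genes tested, 35 differences were called higher (30.1% of all genes) and 219 lower (28.7%). Of the 390, 0 were opposite in the first direction and 5 in the second, beside 0.878% and 0.725% of all genes. Opposite-way counts this small say little about the numbered zinc finger genes. Many genes of this kind code for DNA-binding repressors. Their median difference was -0.97 against 0.02 over all genes, from a median response of -1.02 in BxPC3 and -0.03 in SUIT2, and 8 were called higher and 283 lower with library size only.

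The lists below were drawn up with earlier results of these data known, so their counts describe and do not test. Cytoplasmic ribosomal protein genes had 79 of 79 members called higher and 0 lower, beside 30.1% higher and 28.7% lower over all genes. Their median difference was 0.85 (0.91 in BxPC3, 0.04 in SUIT2). Respiratory chain subunit genes had 58 of 60 higher and 1 lower, median 0.77. Their extremes were NDUFA4 (1.16 ± 0.06), NDUFS6 (1.15 ± 0.08) and COX6C (1.10 ± 0.07) above, and NDUFV3 (-0.96 ± 0.14) below. Glycolysis genes had 18 of 23 higher and 2 lower, led by ENO3 (1.19 ± 0.35), GAPDH (1.05 ± 0.04) and PGK1 (0.91 ± 0.05). With library size only the counts were 76 and 0, 45 and 3, and 13 and 7. None of these 3 lists had an opposite-way member, beside 1.6% of all genes.

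Of 12 RNA polymerase II subunit genes 9 differences were called higher and 2 lower, beside 30.1% and 28.7% of all genes, with a median of 0.67, and with library size only 7 and 3. POLR2F (1.18 ± 0.10) was the highest and POLR2H (-0.31 ± 0.10) the lowest of those called. POLR2A, the polymerase II subunit that carries the catalytic site and the tail, rose in both lines, to 1430 ± 15.5 CPM with THZ1 in BxPC3, against 441 ± 24.7 with DMSO, and to 568 ± 6.16 CPM in SUIT2, against 299 ± 2.66. Its difference was 0.77 ± 0.05 (adjusted p = 4.84e-19). HEXIM1, which inhibits the elongation kinase P-TEFb, rose by 0.92 ± 0.06 in BxPC3 and 1.04 ± 0.06 in SUIT2, and the difference of -0.12 ± 0.08 was not called (adjusted p = 0.205), or -0.52 with library size only. CCNT1 (0.95 ± 0.08) and CCNT2 (1.0 ± 0.11), the cyclins of P-TEFb, were higher, while CDK9, the P-TEFb kinase, was lower (-0.74 ± 0.11). ZC3H4, which restricts noncoding transcription, fell to 6.76 ± 1.47 CPM with THZ1 in BxPC3, against 76.5 ± 5.58 with DMSO, and to 34.1 ± 2.5 CPM in SUIT2, against 51.4 ± 2.60, a difference of -2.92 ± 0.15 (adjusted p = 3.16e-24).

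Stress and growth genes differed member by member. Of 39 genes of the integrated stress response, 16 were higher, 9 lower and 1, ATF4, opposite, beside 30.1%, 28.7% and 1.6% of all genes. The median was 0.20, and with library size only 10 were higher and 17 lower. ASNS, asparagine synthetase, had a difference of 0.82 ± 0.11 and GDF15, a stress cytokine, of 0.83 ± 0.15. DDIT3, the CHOP transcription factor, fell in both lines, to 1.6 ± 0.602 CPM with THZ1 in BxPC3, against 8.59 ± 0.491 with DMSO, and to 30.3 ± 1.59 CPM in SUIT2, against 38.6 ± 1.0, a difference of -2.06 ± 0.26 (adjusted p = 7.86e-10). Exons of MARS and MBD6 overlap DDIT3 on the other strand. ATF3, a stress-induced repressor, had a difference of 0.53 ± 0.34 (adjusted p = 0.174). SIRT6 had one of 0.58 ± 0.17 (adjusted p = 0.00232), from 22.4 ± 1.03 CPM with THZ1 and 14.1 ± 1.03 with DMSO in BxPC3 and 17.5 ± 2.52 and 16.6 ± 2.60 CPM in SUIT2.

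Immediate early genes, which growth signals induce without new protein, had 14 of 32 higher and 8 lower, beside 30.1% and 28.7% of all genes, with a median of 0.44. With library size only 10 were higher and 10 lower. FOS was at 153, 144 and 153 CPM with THZ1 and 11.1, 11.6 and 12.2 with DMSO in BxPC3, and at 5.17, 3.68 and 4.08 with THZ1 and 2.95, 3.35 and 3.11 with DMSO in SUIT2. BxPC3 with THZ1 stood above every other library, a difference of 3.22 ± 0.25 (adjusted p = 4.92e-17). ID2, an inhibitor of differentiation factors, had a difference of 3.29 ± 0.49. IER2 differed by 2.57 ± 0.09, JUNB by 2.04 ± 0.16 and EGR1 by 0.72 ± 0.13. JUN differed by 0.25 ± 0.09 (adjusted p = 0.01), or -0.15 with library size only. MYC, the growth-promoting transcription factor, fell by 0.51 in BxPC3 and 0.19 in SUIT2, a difference of -0.32 ± 0.07 (adjusted p = 0.000203).

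The counts of the next 4 lists stand beside 30.1% higher, 28.7% lower and 1.6% opposite over all genes. Of 38 genes for homologous recombination or Fanconi anaemia repair, 3 were higher and 22 lower, median -0.48, with 0 higher and 34 lower under library size only. SLX4, a nuclease scaffold, had a difference of -2.75 ± 0.23, RAD52 of -2.33 ± 0.29 and FANCF of -2.26 ± 0.24. Of 40 DNA replication genes 11 were higher, a share near that of all genes, led by TYMS (0.95 ± 0.09), and 18 lower, led by GINS1 (-2.27 ± 0.15). With library size only 4 of them were higher and 29 lower. Of 24 p53 targets 2 were higher and 13 lower, or 2 and 17 with library size only. Among the lower ones were PLK3 (-2.03 ± 0.19) and PHLDA3 (-1.80 ± 0.18). Of 23 YAP and TEAD targets 5 were higher and 10 lower, or 2 and 14 with library size only. Among the 23, 4 were opposite, NT5E in the first direction and AMOTL1, AMOTL2 and CYR61 in the second.

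**Figure D3:**
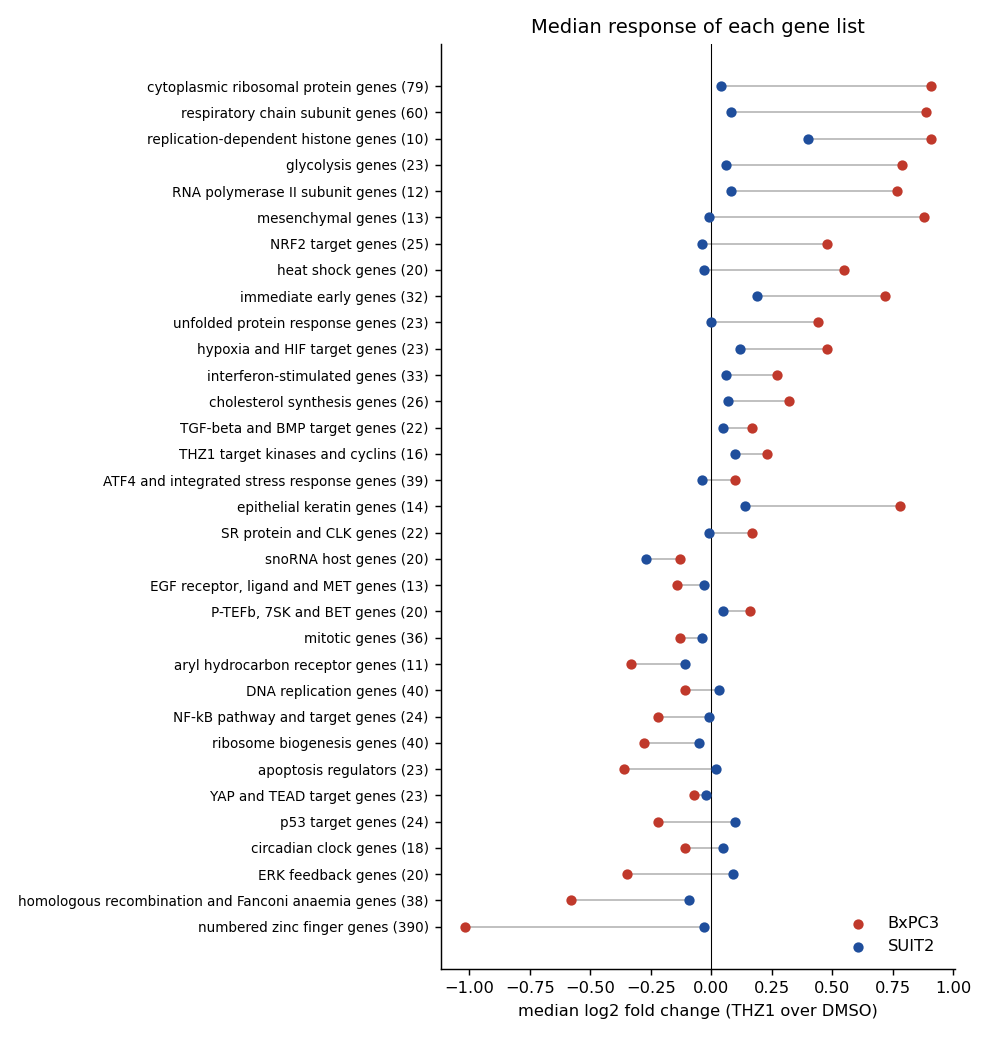
Median log2 response (THZ1 over DMSO) of each gene list with at least 10 tested members, in BxPC3 (red) and SUIT2 (blue), ordered by the median difference, with the number tested in brackets. The red points run from -1.02 for numbered zinc finger genes to 0.91 for ribosomal protein genes, and the blue points are nearer 0 than the red ones except for small nucleolar RNA host genes (-0.13 in BxPC3, -0.27 in SUIT2).

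Many of the largest differences by rank belonged to genes almost silent in 1 line, where a fitted fold means little. HNF4A, a transcription factor of endoderm, had 0 counts with THZ1 and 6 with DMSO in BxPC3, against 2929 and 3168 in SUIT2. Among genes that averaged 10 CPM or more in some group of each line, a limit set after the values were seen, IER2 (2.57), NOS1AP (2.46 ± 0.23), KLHL11 (2.40 ± 0.13), MYLIP (2.40 ± 0.16) and RSRP1 (2.33 ± 0.13) were highest. ZC3H4 (-2.92), FADD (-2.85 ± 0.15), MOB3A (-2.80 ± 0.19), SLX4 (-2.75) and TOP3B (-2.73 ± 0.23) were lowest. FADD, the adaptor of death receptors, fell in both lines, to 6.07 ± 1.32 CPM with THZ1 in BxPC3, against 57.8 ± 4.21 with DMSO, and to 45.5 ± 0.474 CPM in SUIT2, against 60.1 ± 4.84. None of these is an opposite-way gene, and NOS1AP, RSRP1 and MOB3A share exon sequence with neighbours.

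A response larger in SUIT2 was rare. It was found with a SUIT2 call for 185 of the 7709 called differences. SSU72, a phosphatase of the polymerase II tail, fell in both lines, to 71.6 ± 6.5 CPM with THZ1 in BxPC3, against 107 ± 2.72 with DMSO, and to 67.6 ± 2.37 CPM in SUIT2, against 120 ± 5.15. Its difference of 0.24 ± 0.09 (adjusted p = 0.0127) turned to -0.16 with library size only. PAN2, a subunit of a poly(A)-shortening enzyme that shares exon sequence with CNPY2, differed by 0.34 ± 0.10, or -0.06 with library size only. LGR6, a receptor for R-spondins, was at 12.1 ± 1.29 CPM with THZ1 and 12 ± 0.833 with DMSO in BxPC3, and fell in SUIT2 to 11.3 ± 0.756 CPM, against 18.1 ± 0.272, a difference of 0.69 ± 0.18 (adjusted p = 0.000692). STAT2, of interferon signalling, was at 44.4 ± 4.66 and 39.9 ± 0.792 CPM in BxPC3 and rose in SUIT2 to 50.1 ± 2.78 CPM with THZ1, against 34.0 ± 2.74 with DMSO, a difference of -0.41 ± 0.11 (adjusted p = 0.00126). These genes were picked after their values were seen.

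Panc327, the third line of the series, shares no library with the contrast and shows which line the opposite-way genes follow there. Of the 115 genes, 78 (67.8%) were called higher with THZ1 in Panc327 and 18 (15.7%) lower. Of the 95 genes 1 (1.05%) was higher and 82 (86.3%) lower. Over the 14011 genes tested with all 18 libraries, 35.6% were higher and 37.8% lower. The median Panc327 response was 0.41 in the first set, -0.86 in the second and -0.01 over all genes. Most opposite-way genes thus had the sign of BxPC3 in Panc327, with ATF4 (-0.41) and SNHG1 (-0.61) among the exceptions. How often other genes called in BxPC3 had its sign in Panc327 is not given, so this may not be particular to the opposite-way genes. Panc327 files with THZ1 held 51.72% to 54.88% multiply aligned records and those with DMSO 13.48% to 13.78%, and the part of this in its response was not tested.

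**Figure D4:**
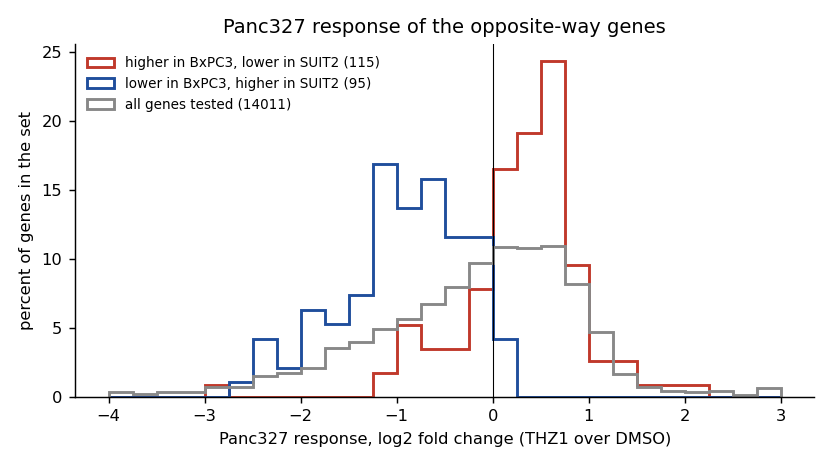
Share of genes (percent of each set) by Panc327 log2 response (THZ1 over DMSO), for the 115 genes higher in BxPC3 and lower in SUIT2, the 95 genes of the reverse kind and all 14011 genes, with values beyond the axis counted in the outermost bins. The first set lies mostly right of 0 and the second almost wholly left of it.

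Abundance moved with the difference. With protein-coding genes cut into 4 equal bins from lowest to highest mean level, the median difference was -0.25, -0.21, 0.00 and 0.38. The highest bin held 62 of the 106 protein-coding genes of the first opposite set and 29 of the 95 of the second. The sets had median levels of 106 and 43.1 CPM, against 31.9 CPM over all protein-coding genes. Their median gene spans were 28409 and 41306 bases, against 33237, and their summed exon lengths 5240.5 and 6908 bases, against 5152. Whether level or length accounts for the sets was not tested.

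**Figure D5:**
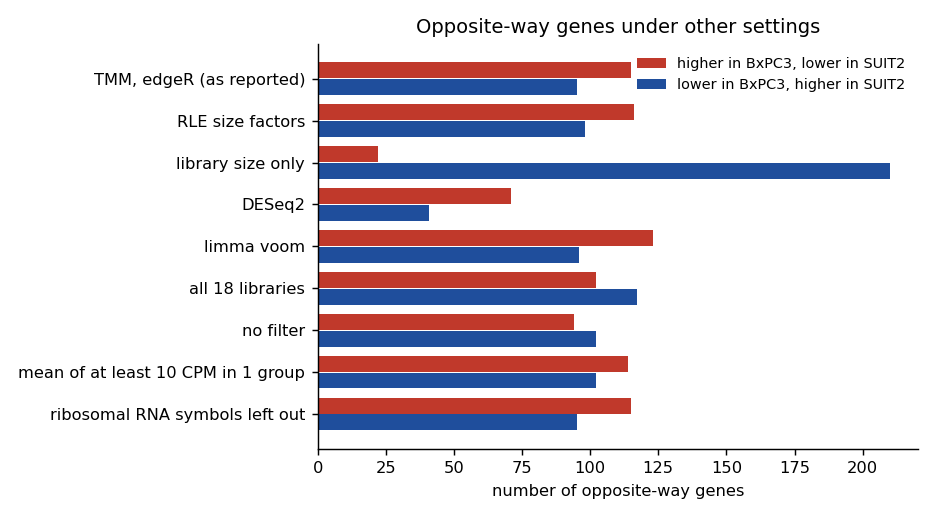
Number of opposite-way genes under 9 settings, with red bars for genes higher in BxPC3 and lower in SUIT2 and blue bars for the reverse. The settings give 71 to 123 red and 41 to 117 blue genes, except library size only, which gives 22 and 210.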

How the data were processed

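Poly(A) RNA libraries were sequenced after TruSeq v2 preparation, per the labels' protocols. The authors deposited whole-number read counts for each gene symbol in 1 file a library. The submitters' processing notes name hg38, HTSeq 0.6.1, TopHat2 2.1.0 and bcl2fastq 1.8.4. How HTSeq treated strand and overlaps, and with which annotation, is not given in the sources used here. Summary entries of the counting tool held 21.3% to 33.98% of the records of the 12 files and were left out. Replicates of a group differed by more than sampling noise.

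Counts were fitted in R 4.3.3 with edgeR 4.0.16: filterByExpr (minimum count 10, minimum total 15), TMM, 4 group means (8 residual degrees of freedom), and robust quasi-likelihood tests adjusted over all 13096 genes, with calls at 0.05. Python 3.11.15 (pandas 2.3.3, numpy 2.4.6, matplotlib 3.10.9) served for summaries and plots. An opposite-way gene had a called difference and called responses of opposite sign in both lines. The SE is the log2 value divided by the square root of the test statistic. Panc327 responses came from a fit of all 18 libraries. Alternatives included RLE factors, library size only, DESeq2 1.42.0, limma 3.58.1 and leaving out each library.

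In simulated data the fit called 84%, 100% and 100% of 1.5-fold, 2-fold and 4-fold differences and recovered 49 of 50 opposite-way genes among 12976, with 14 false calls and 1 false opposite-way gene. Only 200 genes differed there, all with at least 10 CPM with DMSO in both lines. The simulated opposite-way changes were larger than the median weaker responses here of 1.17-fold and 1.18-fold. The rates therefore do not carry over to the 210 opposite-way genes. The genes and lists were chosen with earlier results of these data known. Named are the 10 protein-coding opposite-way genes per direction with the largest weaker response (at least 10 CPM in a group, no overlap of libraries), the 8 largest differences per direction, 15 fixed genes and up to 3 list members per sign with up to 6 opposite-way members. Others are said to be chosen after their values were seen, as are MMP1, SERPINB5, UBE2C, RBM39 and PCF11, taken from the genes opposite under all 3 scalings. Positions are from GENCODE 29, to which 23899 symbols matched by name and 690 by another symbol.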

Additional observations from a re-analysis of the deposited data

Results flagged for a closer look

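The responses of BxPC3 and SUIT2 to THZ1 differed by a test of the difference itself for 7709 of 13096 genes (edgeR, adjusted p under 0.05). A called difference is part of what defines an opposite-way gene, so the values of the leading ones are a description. The differences of those higher in BxPC3 and lower in SUIT2 were 1.65 for ITGB6, 2.35 for FN1, 1.51 for LIME1, 1.27 for KRT15 and 0.94 for GALNT18. They were 0.93 for ABCC3, 0.80 for ATF4, 0.84 for JMJD6, 0.89 for SH3YL1 and 0.77 for SIAH2. The differences of those lower in BxPC3 and higher in SUIT2 were -1.31 for STAT5A, -1.70 for STARD9, -1.11 for WDR91, -1.06 for ABCB9 and -2.40 for ZNF701. They were -0.91 for SPICE1, -1.67 for MOCS1, -1.19 for GPRIN1 and -1.36 for KCTD7. Outside the gene counts, records aligned to several places made up 22.8% of BxPC3 THZ1 files, against 12.8% of BxPC3 DMSO files (n = 3 each, exact permutation p = 0.1), and their part in these differences was not tested.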

How the results depend on the processing

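With library size only, 1813 differences were higher, 6148 lower, and 22 and 210 genes were opposite. With a 1.5-fold threshold (edgeR's glmTreat), 2833 differences were called, 1103 higher and 1730 lower, and the opposite-way counts were 0 and 0, against 115 and 95 by the quasi-likelihood test. DESeq2 gave 71 and 41 opposite-way genes, of which 69 and 41 were among the 115 and 95. Leaving out 1 library at a time gave 7335 to 7597 called differences, 3764 to 3917 higher, 3571 to 3724 lower, and 72 to 111 and 47 to 99 opposite-way genes. Of these, SUIT2 DMSO replicate 3 gave the lowest counts, 72 and 47, and the second count was 53 without SUIT2 THZ1 replicate 2 and 60 without SUIT2 DMSO replicate 2. The cause was not tested. Same-numbered libraries did not deviate together (correlations of deviations -0.108 to 0.0595), so the numbers are not treated as pairs. With a replicate block shared by both lines, 7618 differences were called, with 112 and 88 opposite-way genes, and with a replicate block within each line 7586, with 101 and 73. Keeping genes that averaged 10 CPM or more in some group of each line, a limit chosen after seeing the data, left 6297 called differences. Library size only left almost no BxPC3 response for ATF4 (-0.00), JMJD6 (-0.03) and SH3YL1 (-0.06). It changed the sign of the differences of CDK13 (-0.23), DKC1 (-0.13), FANCA (-0.16), HSPD1 (-0.06), JUN (-0.15), PAN2 (-0.06) and SSU72 (-0.16). Of 328 results for named genes, 184 kept their direction and side of the threshold under every alternative run. Few counts in SUIT2 limit the values of FN1 and SH2D2A.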

Other observations

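A few gene families had several opposite-way genes, seen after their values were known and given as counts only, beside 30.1% higher, 28.7% lower, 0.878% opposite in the first direction and 0.725% in the second over all genes. Of 19 tested genes with HNRNP symbols, RNA-binding proteins of the nucleus, 14 had a difference called higher in BxPC3 and 2 lower, and 4 were opposite-way genes: HNRNPA1 (0.58), HNRNPA3 (0.64), HNRNPH1 (0.58) and HNRNPH3 (0.52). HNRNPA1P10 (0.67), listed beside them, is a near-copy of HNRNPA1 and its counts are uncertain. Of 35 DDX genes, RNA helicases, 13 were higher and 13 lower, shares not far from those of all genes, and 4 were opposite in the same direction: DDX5 (0.35), DDX21 (0.45), DDX39A (0.39) and DDX46 (0.40). Of 33 UBE2 genes, ubiquitin-conjugating enzymes, 16 were higher and 6 lower, with UBE2C (0.85), UBE2G2 (0.37) and UBE2S (0.50) opposite. Of these genes UBE2C alone kept the opposite-way call under all 3 scalings.

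Of 16 KDM genes, histone demethylases, 1 was higher and 8 were lower, beside 30.1% and 28.7% of all genes. KDM4A fell to 31.0 CPM with THZ1 in BxPC3, against 74.3 with DMSO, and rose to 64.2 CPM in SUIT2, against 56.3, a difference of -1.45. Its opposite-way call was not kept under all 3 scalings, nor when each library was left out in turn.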
